A study of Mus musculus with 11 samples.

Results

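The genes described here are the nuclear genes of oxidative phosphorylation, taken as the protein-coding genes outside the mitochondrial chromosome whose symbols carry the prefixes of complex I (Nduf, without the assembly factors Ndufaf), complex II (Sdha to Sdhd), complex III (Uqcr), complex IV (Cox4 to Cox8) and complex V (Atp5). The name rule gave 88 of the 55486 genes in the count table, 39 in complex I, 4 in complex II, 8 in complex III, 19 in complex IV and 18 in complex V. Of these, 80 had enough counts to be tested between the groups of libraries. The rule goes by name only: Ndufa4 falls under complex I although its protein is known as a subunit of complex IV, Cox5b-ps and Ndufb1-ps are listed as protein coding despite their suffix, and Cyc1, a subunit of complex III, falls outside it.

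Oxidative phosphorylation takes place in the inner membrane of mitochondria. Complexes I and II pass electrons from NADH and succinate to ubiquinone, complex III passes them to cytochrome c and complex IV to oxygen, and complex V, the ATP synthase, makes ATP with the proton gradient that complexes I, III and IV build. All complexes except complex II also hold subunits encoded by mitochondrial DNA, so nuclear and mitochondrial transcripts are needed together. Mature granulocytes, eosinophils among them, draw on glycolysis and mitochondria to different degrees, and eosinophils are known to keep more respiring mitochondria than neutrophils do.

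The cells were blood eosinophils of FVB/N mice with metastatic disease, taken on day 21 of treatment and sorted by scatter and surface proteins (live, F4/80+, CD11b+, CD45+, CD3-, Ly6g low, SSC high). The CIS+IT group of 7 mice had received cisplatin, which crosslinks DNA, and antibodies to PD1 and CTLA4, checkpoint receptors of T cells, and the Control Ab group of 4 mice had received control antibody alone. The mice of both groups carried tumours, so neither a tumour-free mouse nor a mouse given cisplatin alone enters the comparison. Each mouse gave 1 library by Smart-seq2, which reads whole transcripts from little input RNA, and the comparison asks how transcript levels differ in these blood cells after the combined treatment.

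Library totals were 5356118 to 8016658 counts in CIS+IT and 3733156 to 6721060 counts in Control Ab, with 12639 to 15557 and 10775 to 14550 genes detected. Eosinophil markers were present throughout, with 12 of 13 detected in all 11 libraries and a summed level of 4608 to 11858 counts per 1000000 (CPM of the library total) in CIS+IT and 5106 to 11957 CPM in Control Ab. Markers of other cells were also detected, and no marker list had a gene at 0 in all libraries. Erythroid markers, 11 in the table, summed to 13030 to 49506 CPM in CIS+IT, and to 11449, 1798, 299930 and 215100 CPM in Control Ab 1 to 4. Platelet markers summed to 974 to 3627 CPM in CIS+IT and 298 to 8149 CPM in Control Ab, neutrophil markers to 5820 to 14059 and 6868 to 12842 CPM, monocyte and macrophage markers to 2036 to 17784 and 984 to 12456 CPM, B cell markers to 1412 to 6793 and 544 to 3328 CPM, and T and NK cell markers to 32.1 to 92.7 and 30.2 to 118 CPM. Control Ab 3 and Control Ab 4 thus stood apart, with haemoglobin genes taking 28.2% and 20.1% of their counts. They also had the lowest totals (3733156 and 3923906 counts), the fewest detected genes (10775 and 11263) and the highest platelet marker sums (8149 and 7182 CPM). Where a single member's fold change with all libraries is given below and moves by over 1.5 times without these 2, the second value is given too. Members whose fold change is not given below can also move, such as Ndufa10, from -0.15 to 0.68, and Uqcrb, from -0.28 to -0.49.

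The nuclear oxidative phosphorylation genes together had lower values in CIS+IT than in Control Ab, and 0 of the 80 tested genes passed the test. On the scale of CPM with TMM factors, which set the libraries to a common level over most genes, the 88 genes summed to 5738, 7302, 7848, 7040, 7827, 8252 and 6790 CPM in CIS+IT 1 to 7, and to 7683, 10137, 9283 and 8615 CPM in Control Ab 1 to 4. Control Ab 2, 3 and 4 lay above all CIS+IT libraries, and Control Ab 1 lay within their range. The means were 7257 ± 840 CPM (SD, n = 7) in CIS+IT and 8930 ± 1038 CPM (SD, n = 4) in Control Ab, a ratio of 0.813, or 0.814 without Control Ab 3 and 4. As a share of all counts the order of the controls was different: the 88 genes took 0.580% to 0.941% of counts in CIS+IT, and 0.901%, 1.11%, 0.621% and 0.604% in Control Ab 1 to 4. On that scale the ratio of the means was 0.966 with all libraries and 0.778 without Control Ab 3 and 4, the libraries in which haemoglobin counts fill much of the total. In sorted bulk cells, fewer cells of a type and less RNA per cell cannot be told apart.

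**Figure D1:**
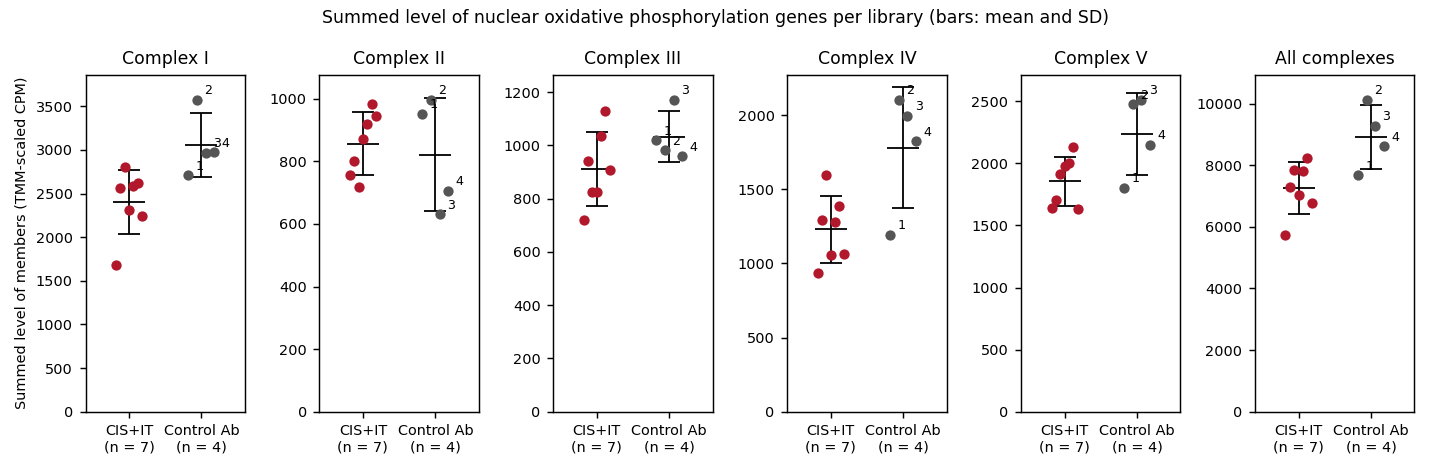
Summed level of the nuclear oxidative phosphorylation genes per library (TMM-scaled CPM, vertical axis from 0) for each complex and for all 5 together; red points are the 7 CIS+IT libraries, grey points the 4 Control Ab libraries with their numbers, and bars give the mean and SD. Complex IV shows the lowest ratio of means (0.690) and complex II the only one above 1 on this scale (1.04, or 0.879 without Control Ab 3 and 4, which lie at the bottom of its panel). Scaled to library totals the ratio of complex III also lay above 1, at 1.05.

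Gene by gene, 72 of the 80 tested members had a log2 fold change below 0 (CIS+IT minus Control Ab), against 48.2% of all 11389 genes tested. Their median was -0.38, or 0.769-fold, and their range was -1.73 to 0.75, while the median over all tested genes was 0.028. At an adjusted p of 0.05, edgeR's quasi-likelihood test with Benjamini-Hochberg adjustment called 0 of the 80 members and 0 of all genes (0.00%), and the smallest adjusted p among the members was 0.626. The unadjusted p was under 0.05 for 19 members with lower and 1 with higher values in CIS+IT, beside 3.13% and 3.70% of all tested genes. DESeq2 called 0 members and 40 genes in all, 3 lower (0.0263%) and 37 higher (0.325%), and limma-voom called 0 of either (0.00%). The groups of libraries did not overlap at all for 5 members lower in CIS+IT and 1 higher, beside 0.430% and 0.509% of all tested genes.

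The counts depended on the scaling and on which libraries entered. Without Control Ab 3 and 4, 67 of 80 members were below 0, 65 of them among the 72, and the median was -0.39. Scaled to library totals in place of TMM, which moved the median of all tested genes to 0.25, 56 of 80 members were below 0 and their median was -0.14, so that the distance between the members and all genes was -0.39, against -0.41 with TMM. The sample identifiers in the table differ with the groups: their leading digits are 19 for all CIS+IT and 20 for all Control Ab libraries, which cannot be told apart from the treatment, and their letters single out CIS+IT 1 and the controls from CIS+IT 2 to 7. With the letters as a covariate the median of the members was -0.97, a value that rests on CIS+IT 1, the library with the lowest summed level, against the 4 controls. Leaving out CIS+IT 1 gave -0.28.

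**Figure D2:**
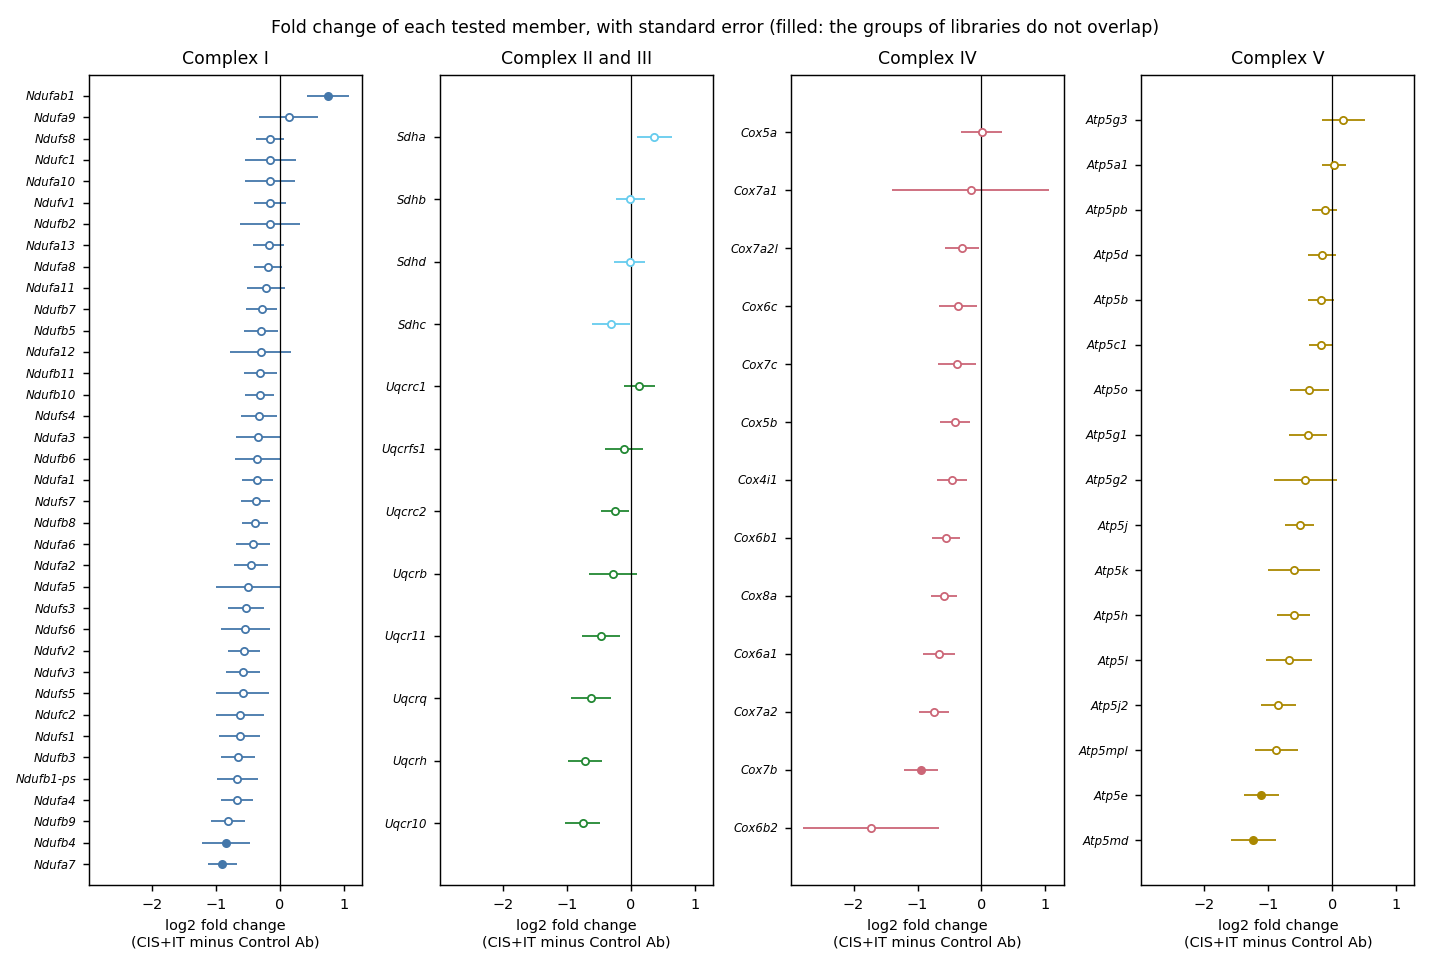
Log2 fold change of the tested members, leaving out 1 not reported here (CIS+IT minus Control Ab, horizontal axis) with its standard error, by complex and with the highest at the top of each; filled points are the 6 members whose 2 groups of libraries do not overlap. Most points lie left of 0 in each panel, and the members of complex II lie closest to it.

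Complex I had 35 of 38 tested members below 0 and a median log2 fold change of -0.35. The flavin and iron-sulfur subunits that take electrons from NADH and hand them to ubiquinone differed in fold change from gene to gene. Ndufs1, the largest iron-sulfur subunit, averaged 45.1 ± 14.9 CPM in CIS+IT and 69.8 ± 20.3 CPM in Control Ab, with a log2 fold change of -0.63 ± 0.316 (SE), or -0.38 without Control Ab 3 and 4. Ndufv1, which binds the flavin and oxidises NADH, averaged 62.0 ± 12.7 and 68.9 ± 15.1 CPM (-0.15). The 7 core subunits had a median of -0.38 and the 31 accessory subunits of -0.35.

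Among the accessory subunits the lowest fold change belonged to Ndufa7 (chromosome 17, 33824572 to 33838317, GRCm38). It had 47.5 to 87.7 CPM (median 70.9) in CIS+IT, against 110, 170, 111 and 116 CPM in Control Ab 1 to 4. All 4 controls lay above all 7 CIS+IT libraries, and the log2 fold change was -0.90 ± 0.227 (SE; adjusted p = 0.626, edgeR). Ndufb4, a subunit of the membrane arm (chromosome 16, 37647170 to 37654453), also had groups that did not overlap, with 8.15 to 26.8 CPM (median 20.8) in CIS+IT and 29.8, 47.5, 33.3 and 31.3 CPM in Control Ab. Its log2 fold change was -0.84 ± 0.372. Ndufb9, another membrane arm subunit, had 29.3 to 54.8 CPM (median 43.2) in CIS+IT and 49.5, 75.6, 93.4 and 84.7 CPM in Control Ab, where only Control Ab 1 reached into the range of CIS+IT. Its log2 fold change was -0.81 ± 0.264, or -0.49 without Control Ab 3 and 4.

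Ndufab1 went the other way. It encodes the mitochondrial acyl carrier protein, which is built into complex I and also serves fatty acid synthesis in mitochondria (chromosome 7, 122085403 to 122101886). CIS+IT libraries had 23.2 to 43.1 CPM (median 29.9), against 19.3, 18.5, 16.8 and 17.4 CPM in Control Ab. The lowest CIS+IT library lay above the highest control, and the log2 fold change was 0.75 ± 0.335 (adjusted p = 0.698, edgeR), the highest among the 80 members. Ndufab1 has 6883 bases of exons. With an offset for length and GC content in the edgeR fit, which also lowered the median of all genes, its fold change was 0.38.

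The most abundant members of complex I by CPM differed little. Ndufa13, also known as GRIM-19, averaged 141 ± 36.0 CPM in CIS+IT and 159 ± 28.3 CPM in Control Ab, and Ndufb7 averaged 135 ± 35.3 and 164 ± 21.9 CPM. In each of them Control Ab 2 was the highest of the 4 controls, at 201 and 197 CPM, and the rest overlapped with CIS+IT. Ndufa11 and Ndufb11, subunits of the membrane arm, had log2 fold changes of -0.22 (-0.42 without Control Ab 3 and 4) and -0.30. Ndufa9, an accessory subunit near the ubiquinone site, turned on 1 control. CIS+IT had 44.2 to 79.6 CPM and the controls 89.3, 51.6, 7.21 and 89.4 CPM, where Control Ab 3 held 18 counts. Its log2 fold change was 0.14 with all libraries, -0.20 without Control Ab 3 and -0.072 without Control Ab 3 and 4.

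Ndufa4, the member whose protein sits in complex IV, had 59.9 to 129 CPM (median 89.9) in CIS+IT and 97.7, 164, 147 and 169 CPM in Control Ab, with a log2 fold change of -0.67 ± 0.246. Its values thus lay lower in most CIS+IT libraries, with Control Ab 1 in their range. Ndufa4l2, its paralog known for induction under low oxygen, had 0 counts in all 11 libraries, where 3 counts would be 0.374 to 0.560 CPM in CIS+IT and 0.446 to 0.804 CPM in Control Ab.

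Complex II, the succinate dehydrogenase that is also an enzyme of the citrate cycle, had fold changes closest to 0 among the 5 complexes. Sdha, the flavoprotein that oxidises succinate, had 146 to 324 CPM (median 217) in CIS+IT and 225, 167, 101 and 186 CPM in Control Ab, with a log2 fold change of 0.37 ± 0.276 (adjusted p = 0.874, edgeR), or 0.20 without Control Ab 3 and 4. Sdhb, the iron-sulfur subunit, averaged 340 ± 76.9 CPM in CIS+IT and 341 ± 60.6 CPM in Control Ab. The membrane anchors Sdhd and Sdhc averaged 248 ± 25.5 and 48.8 ± 13.4 CPM in CIS+IT, and 251 ± 98.2 and 60.5 ± 19.0 CPM in Control Ab. The median over the 4 genes was -0.0087, and it differed with the 2 controls rich in erythroid transcripts. The summed level of complex II was 952, 998, 631 and 706 CPM in Control Ab 1 to 4, against 718 to 982 CPM in CIS+IT. Without Control Ab 3 and 4 the median was -0.25, with Sdhb at -0.15 and Sdhd at -0.36, and the ratio of sums was 0.879 in place of 1.04. The parts of erythroid RNA, platelet RNA and low library totals in this cannot be told apart and were not tested.

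In complex III the small subunits had lower fold changes than the large ones, a contrast seen in the values and not tested. The small ones had a median exon length of 876 bases and the large ones 2552 bases. The part of length in this contrast was not tested. Uqcr10, a small transmembrane subunit, had 25.9 to 59.8 CPM (median 43.8) in CIS+IT and 56.8, 92.4, 81.7 and 64.3 CPM in Control Ab, with a log2 fold change of -0.75 ± 0.268 (adjusted p = 0.626, edgeR). Uqcrh, the hinge protein near cytochrome c1, had 42.6 to 110 CPM (median 80.1) in CIS+IT and 83.5, 142, 139 and 131 CPM in Control Ab, a log2 fold change of -0.71 ± 0.269. In both genes a single control, Control Ab 1, overlapped with CIS+IT. The 5 small subunits, Uqcr10, Uqcr11, Uqcrb, Uqcrh and Uqcrq, were all below 0 with a median of -0.62.

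The large subunits of complex III lay near 0. Uqcrc1, a core protein on the matrix side and the most abundant gene of the complex by CPM, had 276 to 561 CPM (median 483) in CIS+IT and 551, 310, 449 and 334 CPM in Control Ab, a log2 fold change of 0.14 ± 0.239. Uqcrc2, its partner, averaged 107 ± 15.9 CPM in CIS+IT and 126 ± 33.6 CPM in Control Ab (-0.24), and Uqcrfs1, the Rieske iron-sulfur protein that moves electrons toward cytochrome c1, averaged 94.1 ± 33.7 and 101 ± 32.5 CPM (-0.11). Without Control Ab 3 and 4, Uqcrc2 and Uqcrfs1 had fold changes of 0.14 and 0.38, so their sign rests on these libraries.

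Complex IV had 12 of 13 tested members below 0, with a median log2 fold change of -0.46, and the lowest ratio of summed levels. Its genes summed to 933 to 1593 CPM (median 1282) in CIS+IT, against 1195, 2106, 1997 and 1826 CPM in Control Ab 1 to 4. Control Ab 2, 3 and 4 lay above every CIS+IT library and Control Ab 1 lay among them, for a ratio of 0.690, or 0.745 without Control Ab 3 and 4. Complex IV made up 16.9 ± 1.73% of the counts of all members in CIS+IT and 19.8 ± 2.82% in Control Ab.

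Cox7b, a small transmembrane subunit (chromosome X, 106015700 to 106022450), had 30.6 to 57.7 CPM (median 49.5) in CIS+IT and 57.7, 92.1, 125 and 86.5 CPM in Control Ab. The groups did not overlap, but the highest CIS+IT library and Control Ab 1 differ by less than counting error, and the log2 fold change was -0.95 ± 0.265 (adjusted p = 0.626, edgeR). Cox5a, a subunit on the matrix side, was the member of complex IV at 0, with 51.5 ± 18 CPM in CIS+IT and 51.4 ± 11.4 CPM in Control Ab, or a fold change of 0.26 without Control Ab 3 and 4. Cox4i1, the largest nuclear subunit and a site of regulation by ATP, had 165 to 331 CPM (median 217) in CIS+IT and 227, 398, 320 and 320 CPM in Control Ab, with a log2 fold change of -0.46 ± 0.234.

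Several subunits of complex IV exist as tissue isoforms, and several of the tissue-restricted forms had few or no counts. Cox4i2, the lung form, and Cox8b had 0 counts in all libraries, as did Cox7b2. Cox6a2, the heart and muscle form, had 4 counts in Control Ab 4 and 0 elsewhere, Cox8c had 3 counts in CIS+IT 7 and 0 elsewhere, and Cox5b-ps had 0 to 6 counts a library. The widely expressed forms Cox4i1, Cox6a1 and Cox8a were among the most abundant members. Cox6a1 had 125 to 264 CPM (median 187) in CIS+IT and 177, 370, 364 and 261 CPM in Control Ab (-0.66 ± 0.246). Cox8a had 123 to 180 CPM (median 144) in CIS+IT and 147, 247, 240 and 250 CPM in Control Ab (-0.59 ± 0.199, or -0.38 without Control Ab 3 and 4). Control Ab 1 fell within the CIS+IT range for both genes and Control Ab 4 for Cox6a1.

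Cox7a2, the widely expressed form of its pair, had 52.1 to 79.9 CPM (median 56.0) in CIS+IT and 63.8, 137, 99.0 and 107 CPM in Control Ab, with a log2 fold change of -0.75 ± 0.239. Cox7a1, the heart and muscle form, stayed at 0 to 3.77 CPM in CIS+IT and 0 to 3.82 CPM in Control Ab, 0 to 27 counts a library. Cox7a2l, which encodes a protein of respiratory supercomplexes, averaged 97.2 ± 19.0 CPM in CIS+IT and 120 ± 45.7 CPM in Control Ab (-0.30). Its fold change was 0.25 without Control Ab 3 and 4.

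Cox6b1, a subunit facing the intermembrane space, had 147 to 278 CPM (median 205) in CIS+IT and 222, 399, 286 and 313 CPM in Control Ab (-0.55 ± 0.215). Its testis-type paralog Cox6b2 (chromosome 7, 4751792 to 4753094) had 2.33 to 12.8 CPM (median 8.37) in CIS+IT, against 1.01, 0, 68.9 and 31.3 CPM in Control Ab 1 to 4. The 2 controls with the highest erythroid marker sums held 172 and 86 counts of Cox6b2, the other 2 held 8 and 0, and the 7 CIS+IT libraries lay between these pairs. With all libraries the log2 fold change was -1.73 ± 1.07, the lowest among the members, without Control Ab 3 alone it was -0.42, and without Control Ab 3 and 4 it was 3.87. The parts of erythroid RNA, platelet RNA and low library totals in the level of Cox6b2 cannot be told apart and were not tested.

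Complex V had 15 of 17 tested members below 0 and a median of -0.43, with different values for the parts of the enzyme. In the catalytic head, Atp5b, the beta subunit that makes ATP, had 412 to 690 CPM (median 504) in CIS+IT and 431, 591, 709 and 667 CPM in Control Ab, a log2 fold change of -0.17 ± 0.205, or 0.098 without Control Ab 3 and 4. Atp5a1, the alpha subunit, had 266 to 369 CPM (median 310) in CIS+IT and 274, 262, 379 and 301 CPM in Control Ab (0.027 ± 0.183, or 0.25 without Control Ab 3 and 4). In both genes the groups overlapped, with Control Ab 3 above every CIS+IT library and, for Atp5a1, Control Ab 2 below every one. Atp5c1 and Atp5d, of the central stalk, had fold changes of -0.18 and -0.16.

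Atp5e, the small epsilon subunit of the same stalk (chromosome 2, 174461072 to 174464105), had a fold change below those of the other head and stalk genes. CIS+IT libraries had 36.8 to 71.2 CPM (median 51.4), against 73.3, 154, 120 and 98.5 CPM in Control Ab. The groups did not overlap, although Control Ab 1 lay just above the highest CIS+IT library, and the log2 fold change was -1.11 ± 0.274 (adjusted p = 0.626, edgeR). This was the smallest unadjusted p among the members.

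The membrane part of the ATP synthase had its small accessory subunits furthest down. Atp5md, also known as DAPIT, a small subunit of the membrane part (chromosome 19, 47083464 to 47090647), had 14.6 to 21.5 CPM (median 16.9) in CIS+IT and 24.4, 68.6, 32.5 and 40.0 CPM in Control Ab. The groups did not overlap, with Control Ab 2 far above the other controls, and the log2 fold change was -1.23 ± 0.346 (adjusted p = 0.626, edgeR). Atp5mpl and Atp5j2, further small membrane subunits, had log2 fold changes of -0.88 ± 0.340 and -0.85 ± 0.275. All 5 small membrane subunits, with Atp5l and Atp5k, were below 0, with a median of -0.85, against -0.17 for the 5 genes of the head and central stalk and -0.43 for the 4 genes of the peripheral stalk.

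The rotor ring of complex V is built from 1 mature protein, subunit c, encoded by 3 genes that differ in their import sequence. Atp5g1 averaged 34.1 ± 9.41 CPM in CIS+IT and 44.4 ± 4.84 CPM in Control Ab (-0.38), Atp5g2 13.8 ± 5.76 and 18.7 ± 9.47 CPM (-0.43), and Atp5g3 40.6 ± 12.7 and 35.9 ± 11.3 CPM (0.17). Without Control Ab 3 and 4 the fold changes of Atp5g2 and Atp5g3 were 0.043 and -0.13, so the 3 genes had no common direction that held. Atp5o, the subunit that ties the stalk to the head, is listed under 2 Ensembl entries, of which 1 held all counts and the other, which overlaps it, held 0 in every library. Its counts are uncertain to that degree, since 47.9% of its annotated exon bases overlap other genes.

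**Figure D3:**
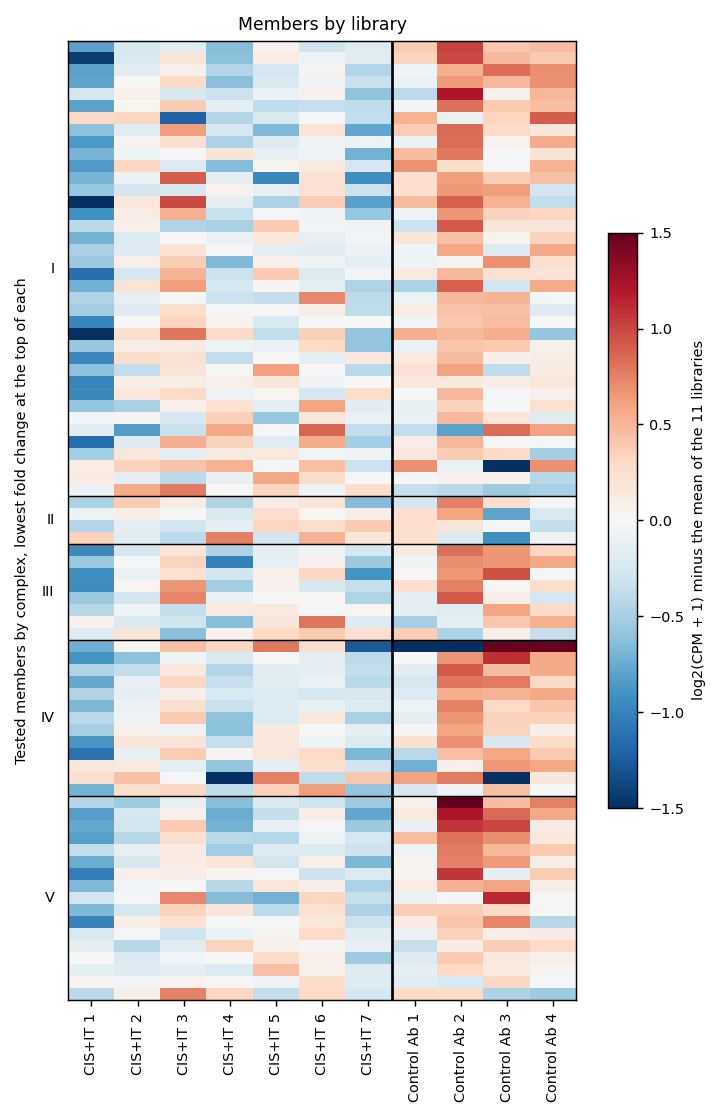
Level of each tested member in each library as log2(CPM + 1) minus its mean over the 11 libraries (color scale), in rows by complex with the lowest fold change at the top of each, and with CIS+IT 1 to 7 left of the line and Control Ab 1 to 4 right of it. The median log2 CPM of the members was 5.44 to 6.16 in CIS+IT, with CIS+IT 1 the lowest, and 5.99, 6.54, 6.46 and 6.29 in Control Ab 1 to 4, so Control Ab 1 lies within the range of CIS+IT.

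With all complexes pooled, the genes of core and catalytic subunits and those of the other subunits were set side by side. This grouping was chosen after the values had been seen and is therefore given with no test. The 17 core and catalytic genes (the core of complex I, Sdha and Sdhb, the large subunits of complex III and the head and central stalk of complex V) had a median log2 fold change of -0.16, with 13 below 0. The other 63 had a median of -0.42, with 59 below 0. Without Control Ab 3 and 4 the medians were -0.15 and -0.45. Complex I alone did not show this contrast, with medians of -0.38 for its 7 core and -0.35 for its 31 accessory subunits. The 13 tested genes of complex IV, with a median of -0.46, were all placed among the others. Core and catalytic genes had a median annotated exon length of 2239 bases and the others 1381 bases, and length moved with the fold change among all genes too. With an offset for length and GC content the medians were -0.34 and -0.61.

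Short genes lay below 0 more often than long ones, among the members and among the other tested genes. Of the members with under 1000 bases of exons, 18 of 18 were below 0 with a median of -0.55, and 64.7% of the 564 other genes of that length were below 0 with a median of -0.30. Between 1000 and 2000 bases, 32 of 32 members were below 0 (median -0.42), beside 63.0% of 1283 other genes (-0.18). For 2000 to 4000 bases, 14 of 19 members were below 0 (-0.31) and the other genes had a median of -0.034. Over 4000 bases, 8 of 11 were below 0 (-0.17) and the other genes had a median of 0.14. The median of the members minus that of the other genes was thus -0.31 to -0.24 over the 4 length classes. The rank correlation of fold change and exon length was 0.316 over 80 members and 0.179 over 11380 genes, given as a description since the genes share their libraries. With an offset for length and GC content in the edgeR fit, which moved the median of all genes to -0.25, the members had a median of -0.57, and their distance from all genes was -0.32 in place of -0.41.

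**Figure D4:**
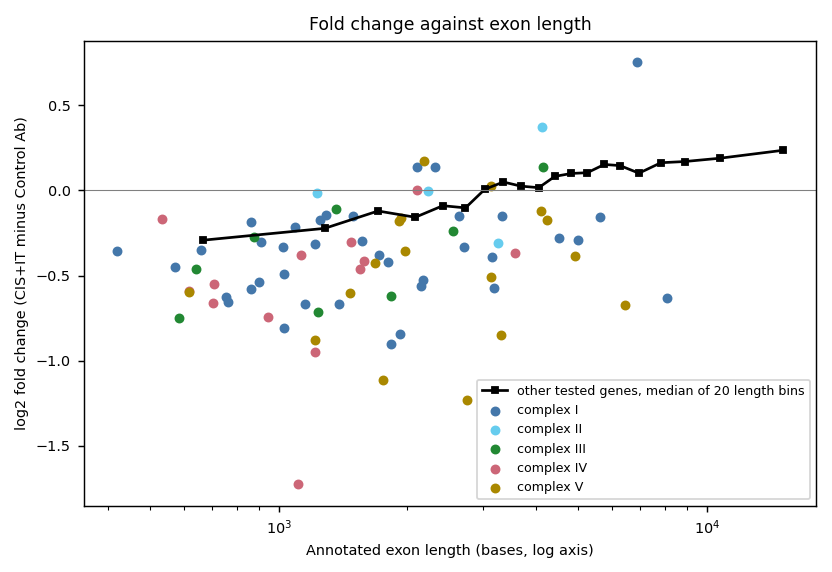
Log2 fold change (CIS+IT minus Control Ab, vertical axis) against annotated exon length in bases (log axis); colored points are the 80 tested members by complex and the black line gives the median of the other tested genes in 20 length bins. The black line climbs with length and crosses 0 among genes of 2000 to 4000 bases, and most members lie under it in all 4 length classes.

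Per exon length, the members of the 5 complexes were not at a common level. The highest level, as TMM-scaled CPM per kilobase of exon, was that of Cox6b1 with 294 ± 55.9 in CIS+IT and 431 ± 103 in Control Ab, followed by Cox6a1 with 264 ± 61.1 and 418 ± 131, Cox8a with 238 ± 27.7 and 357 ± 80.3, and Ndufa1 with 226 ± 55.6 and 289 ± 71.9. Neighbours in this order differed by less than the SD in either group. The lowest was Ndufb2 with 2.31 ± 0.726 and 2.58 ± 0.390, so that levels spanned 143-fold, and Atp5l, Ndufab1 and Cox7a1 were also under 5 CPM per kilobase in both groups. Medians over the tested members were 39.2 CPM per kilobase in complex I, 100.5 in complex II, 73.1 in complex III, 51.6 in complex IV and 32.2 in complex V over all libraries, against 4.96 for all tested genes. Genes with rare long exons are placed too low by this measure. With the longest transcript as length, 8 of the 10 highest members were the same.

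**Figure D5:**
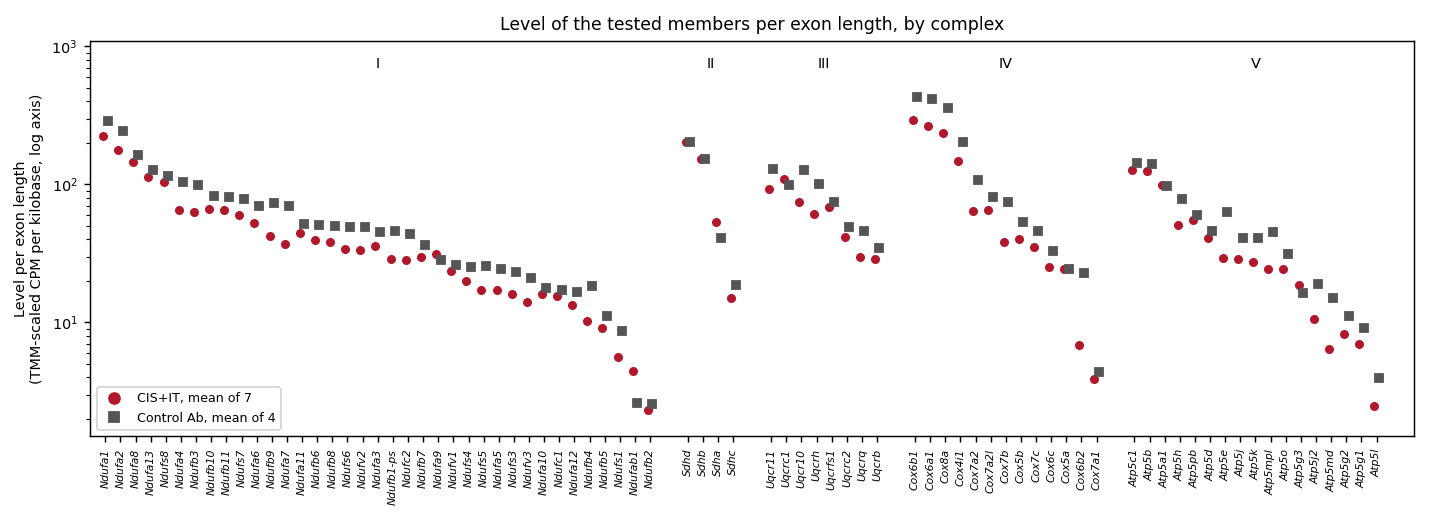
Level per exon length (TMM-scaled CPM per kilobase, log axis) of the tested members, leaving out 1 not reported here, in order of level within each complex, with red circles for the mean of the 7 CIS+IT libraries and grey squares for the mean of the 4 Control Ab libraries. The squares lie above the circles for most members, and the complex II genes Sdhd and Sdhb are the pairs that lie closest together among the most abundant genes.

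Reads of such genes can be shared with copies and neighbours. The 16 rows of the same name pattern that are not protein coding, 15 of them processed pseudogenes, held 0.0839% to 0.219% as many counts as the members in CIS+IT, and 0.156% to 0.246% in Control Ab. In the GENCODE M21 annotation, exons of 30 tested members overlap those of another gene, and for the 50 without any overlap 47 were below 0 with a median of -0.42.

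Promoter stretches are given for 5 of the 6 genes whose groups did not overlap, all except Ndufa7. This choice does not rank the genes. Some members with overlapping groups, such as Cox7a2, had a smaller unadjusted p in edgeR than Ndufb4 and Ndufab1. Each stretch is the 100 bases directly before the gene's start in the deposited table, from RefSeq sequence on GRCm38.p6, 5′ to 3′ on the gene's strand. Capitals mark the core of the motif bound by ETS factors such as GABPA, a known activator of respiratory genes, on either strand. Atp5e lies at chr2:174464106-174464205 on the minus strand, Atp5md at chr19:47090648-47090747 on the minus strand, Cox7b at chrX:106015600-106015699 on the plus strand, Ndufb4 at chr16:37654454-37654553 on the minus strand, and Ndufab1, the gene with higher values in CIS+IT, at chr7:122101887-122101986 on the minus strand.
Atp5e: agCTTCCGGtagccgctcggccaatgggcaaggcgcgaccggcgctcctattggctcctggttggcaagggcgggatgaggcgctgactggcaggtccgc
Atp5md: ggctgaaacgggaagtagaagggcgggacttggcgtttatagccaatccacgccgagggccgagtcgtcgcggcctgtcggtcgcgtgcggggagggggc
Cox7b: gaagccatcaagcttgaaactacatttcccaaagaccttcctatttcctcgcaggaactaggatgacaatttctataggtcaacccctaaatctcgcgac
Ndufb4: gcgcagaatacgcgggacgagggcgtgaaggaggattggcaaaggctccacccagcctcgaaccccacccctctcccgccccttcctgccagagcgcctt
Ndufab1: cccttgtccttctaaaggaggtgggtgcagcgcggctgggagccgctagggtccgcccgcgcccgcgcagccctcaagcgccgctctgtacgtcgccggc
Only the stretch of Atp5e held the ETS core CCGGAAG, read here on the opposite strand as CTTCCGG, and none of the 5 held the inner core of the NRF1 motif, CGCATGCG, or the YY1 core AAGATGG. All except that of Cox7b, with 44% G and C, were rich in G and C, at 67% to 73%.

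RefSeq promoter windows were found for 69 of the 87 member symbols, 74 windows in all, because some genes have several starts. In the 250 bases before the start, the NRF1 inner core CGCATGCG, a palindrome, was present in 7 of 74 windows (9.46%), against 3.18% of the windows of all tested genes and 1.55% of all promoters. Of these 7 windows, 4 were among the 18 of complex V, 2 among the 35 of complex I and 1 among the 13 of complex IV. Several windows can belong to 1 gene, and the complexes were not compared by a test. The ETS core CCGGAAG, searched on both strands, was in 12 of 74 (16.2%), against 14.3% and 6.91%, and the YY1 core AAGATGG in 1 of 74 (1.35%), against 4.50% and 4.49%. With the 50 bases after the start included, these shares were 12.2%, 23.0% and 14.9% of the members' windows, against 3.92%, 18.7% and 7.48% for tested genes. The ETS and YY1 cores can share the letters AAG where they follow each other, and a match describes letters in the window, not binding. The letters TATAAA were in the 50 bases before the start in 0 of 74 windows, against 1.36% of the windows of tested genes.

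The other genes of the pathway did not all share the members' values. Their lists also differ in exon length, which moved with the fold change among all tested genes. Tested mitochondrially encoded genes had a median of 1144 bases, assembly factors 2490, and carriers and partners 3040, against 1631 for the members. The median was 3270.5 bases for coenzyme Q synthesis, 4302 for the citrate cycle and 5687 for biogenesis regulators. The part of length in the fold changes of these lists was not tested. Their counts below 0 stand beside 48.2% of all tested genes. Of the 13 mitochondrially encoded subunits 7 were tested, all 7 were below 0, and their median log2 fold change was -1.07, or -0.44 without Control Ab 3 and 4. The others, mt-Co2, mt-Co3, mt-Atp6, mt-Atp8, mt-Nd3 and mt-Nd4l, had at most 2.85 CPM in any library, while mt-Co1 had 1464 to 7637 CPM. The cause of these low counts was not tested, and the values cover only part of the mitochondrially encoded set. mt-Cytb, the core of complex III, averaged 4108 ± 1675 CPM in CIS+IT and 8950 ± 2860 CPM in Control Ab (-1.12 ± 0.305, adjusted p = 0.626, edgeR), or -0.72 without Control Ab 3 and 4. Of 43 tested assembly factors, which build the complexes, 30 were below 0 with a median of -0.27. Sdhaf4, which matures Sdha, averaged 15.8 ± 6.58 CPM in CIS+IT and 32.9 ± 6.52 CPM in Control Ab (-1.06). Cmc2, which serves complex IV, averaged 270 ± 90.4 and 305 ± 82.5 CPM (-0.18).

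Enzymes of the citrate cycle and of coenzyme Q synthesis lay near the median of all genes. In the citrate cycle 5 of 13 tested genes were below 0 (median 0.13, or -0.0088 without Control Ab 3 and 4), with Mdh2, the malate dehydrogenase, at 905 ± 353 CPM in CIS+IT and 942 ± 221 CPM in Control Ab, and Idh3b at 75.2 ± 18.7 and 98.2 ± 17.9 CPM. In coenzyme Q synthesis 4 of 10 were below 0 (0.13, or 0.29 without them), with Coq9 at 40.4 ± 19.3 CPM in CIS+IT and 36.6 ± 25.5 CPM in Control Ab, and Pdss1 at 6.55 ± 3.79 and 11.4 ± 5.74 CPM. Among 17 electron carriers, transporters and partners of the ATP synthase 10 were below 0 (-0.049, or 0.043 without them). Atpif1, the inhibitor of ATP hydrolysis by complex V, averaged 49.0 ± 17.1 CPM in CIS+IT and 89.4 ± 33.6 CPM in Control Ab (-0.87). Its controls stood at 52.3, 71.6, 126 and 108 CPM, of which Control Ab 1 and 2 lay in the CIS+IT range of 28.8 to 79.0 CPM, and without Control Ab 3 and 4 the fold change was -0.30. Ucp2, an uncoupling protein family member, had 623 to 1205 CPM in CIS+IT and 538, 725, 2535 and 2846 CPM in Control Ab, with a fold change of -0.81, or 0.62 without Control Ab 3 and 4. Both genes were high in Control Ab 3 and 4. The parts of erythroid RNA, platelet RNA and low library totals in this cannot be told apart and were not tested.

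Regulators of mitochondrial biogenesis were split, with 6 of 13 tested genes below 0 and a median of 0.029, or -0.026 without Control Ab 3 and 4. Nrf1, the factor whose motif was searched above, averaged 64.1 ± 10.6 CPM in CIS+IT and 84.8 ± 27.2 CPM in Control Ab (-0.41, or -0.72 without Control Ab 3 and 4), and Ppargc1a, the coactivator of respiratory genes in muscle and brown fat, had 0 counts in all libraries. None of the genes in these 6 lists was called by edgeR (0.00% of all tested genes) or DESeq2 (0.0263% lower and 0.325% higher). The unadjusted p in edgeR was under 0.05 for the 7 tested mitochondrially encoded genes, 2 of 17 carriers and partners and 1 of 43 assembly factors. All of these were lower in CIS+IT, beside 3.13% lower and 3.70% higher among all tested genes.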

How the data were processed

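Transcripts of sorted mouse blood eosinophils were sequenced in 11 libraries. The table that the authors deposited holds raw counts for each Ensembl gene, with its position and biotype. The tools bcl2fastq 2.20.0.422, HISAT2 2.10 and SAMtools 1.15.1 and the build GRCm38 are named per the submitters' processing notes. Neither the read counter nor the strand setting nor the annotation release is stated there, so overlapping genes and gene copies may share reads. The row naming no gene held 0 counts, and no pair of libraries was a duplicate.

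Counts were tested with edgeR 4.0.16 (quasi-likelihood, robust, TMM, filterByExpr, Benjamini-Hochberg over 11389 genes at 0.05) in R 4.3.3, between the 7 CIS+IT and 4 Control Ab libraries with no covariate. The p-values measure the spread between these libraries. Each library came from a different mouse, and the shared replicate numbers were not taken as pairs. CPM of single genes are TMM-scaled, and fold changes are CIS+IT minus Control Ab on the log2 scale. Exon lengths came from GENCODE M21, which matched 55140 identifiers and all 88 members. Reads had no molecular identifiers, so floors of 3 counts cover counting error only.

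The test was tested on simulated data with known changes, and it called few of the smaller ones. A member that was not called is therefore not shown to be unchanged. Genes named in the text were, per complex, the 2 most abundant and the 2 with the smallest p, fixed core subunits, isoform families, and per pathway list the most abundant gene and the one with the smallest p. Other members named, such as Ndufb4, Ndufa9, Atp5mpl, Atp5j2, Atp5c1 and Atp5d, and Ppargc1a and the grouping by role, were chosen after the values were seen. Values of 1 core subunit are not reported here. Alternatives were DESeq2 1.42.0 and its size factors, limma-voom of limma 3.58.1, upper-quartile scaling, library totals, other filters, a replicate block, covariates, removal of erythroid and platelet genes, a length and GC offset, a threshold of 0.1, and leaving out libraries. The members and all lists were chosen with earlier results of these data known.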

Additional observations from a re-analysis of the deposited data

Results flagged for a closer look

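In 5 of 84 groups, the 7 CIS+IT or 4 Control Ab libraries of a named member or of the summed level of a complex, the highest or lowest library lay far from the rest by Dixon's criterion, which chance meets in about 1 of 20 groups. All 5 are in Control Ab. Control Ab 2 was high for Ndufa13 at 201 CPM (nearest control 151 CPM), for Ndufb7 at 197 CPM (nearest 156 CPM) and for Ndufa7 at 170 CPM (nearest 116 CPM). Control Ab 1 was low for Cox8a, at 147 CPM (nearest 240 CPM). Control Ab 3 was high for Atp5g2, at 32.9 CPM (nearest 14.2 CPM). These values enter the fold changes given above.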

How the results depend on the processing

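The summary values over the alternatives were counts of calls, counts below 0, medians and ratios. Of these, 226 kept their direction with a size counted as similar. Another 9 changed more in size, up or down, and 8, all medians of complex II, changed sign. DESeq2 called 40 genes, none of them members, where edgeR and its other settings called 0. With library totals 56 of 80 members were below 0, in place of 72. On that scale the median log2 fold change of complex I was -0.099 and that of complex II was 0.15. The ratio of summed levels was 0.966 in place of 0.813. The median of complex II was 0.013 with no filter and 0.017 without erythroid and platelet genes, and -0.092 to 0.14 over leaving out each library. With identifier letters as a covariate the medians were -0.97 for all members, -0.89 relative to all genes, -1.07 for complex I, -0.95 for complex III, -0.96 for complex IV and -0.97 for complex V. Leaving out each library gave 69 to 74 members below 0 and medians of -0.46 (without Control Ab 1) to -0.28 (without CIS+IT 1). The cause was not tested.

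The labels do not say whether their shared numbers pair the mice. The correlations of same-numbered libraries' deviations were -0.039, 0.022, -0.11 and -0.050, which cannot decide it. With the replicate number as a block, on the 8 libraries numbered 1 to 4, 0 genes were called, 286 had an unadjusted p under 0.05, 74 of 80 members were below 0 and their median was -0.45.

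Signs of some members named by the fixed choices above depended on the setting. Most of these had values near 0, while Cox6b2, Atp5g2, Cox7a2l and Uqcrc2 lay further from it. Other members also turned and are left out of the list below. Examples with library totals are Ndufa10 at 0.26, Atp5c1 at 0.061 and Atp5d at 0.084. Log2 fold changes turned as follows: with DESeq2 size factors Cox5a -0.018, with upper quartiles Cox5a -0.0020, with DESeq2 Cox5a -0.017; with library totals Ndufa13 0.048, Sdhb 0.18, Sdhd 0.12, Uqcrc2 0.076, Atp5b 0.13, Ndufv1 0.076, Uqcrfs1 0.23 and Cox7a2l 0.050; with limma-voom Uqcrfs1 0.095, Cox6b2 1.98 and Atp5g3 -0.065. With no filter they were 0.020 for Sdhb and 0.0054 for Sdhd, and at a mean of at least 10 CPM -0.0013 for Atp5a1 and -0.024 for Cox5a. With the replicate block they were -0.057 for Uqcrc1, -0.18 for Cox5a and 0.29 for Cox6b2. With detected genes as a covariate they were 0.0021 for Sdhb, 0.073 for Uqcrc2, 0.052 for Atp5b, 0.14 for Uqcrfs1, 1.01 for Cox6b2, 0.032 for Cox7a2l and -0.18 for Atp5g3, and with identifier letters -0.14 for Uqcrc1, -0.79 for Cox5a and -0.36 for Atp5g3. Without erythroid and platelet genes they were 0.019 for Sdhb and 0.015 for Sdhd. With the length and GC offset they were -0.18 for Uqcrc1, -0.28 for Atp5a1 and -0.063 for Cox5a. Without Control Ab 3 and 4 they were 0.14 for Uqcrc2, 0.098 for Atp5b, 0.38 for Uqcrfs1, 3.87 for Cox6b2, 0.25 for Cox7a2l, 0.043 for Atp5g2 and -0.13 for Atp5g3. Over leaving out each library, Sdhb ran from -0.098 to 0.085, Sdhd from -0.18 to 0.23, Cox5a from -0.12 to 0.19, Cox7a1 from -0.54 to 0.17, Atp5a1 from -0.033 to 0.18, Atp5g2 from -0.63 to 0.018, Ndufv1 from -0.23 to 0.00091 and Uqcrfs1 from -0.29 to 0.079. The biological coefficient of variation over all tested genes was 0.828.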
